A study of Mus musculus with 12 samples.

Results

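Antiviral restriction factors are proteins that block a step of a virus's life cycle inside or at the surface of the infected cell. The 9 genes described here are Bst2, which encodes the membrane tether tetherin, Ifitm1, Ifitm2 and Ifitm3, which encode interferon-induced transmembrane proteins, Slfn2, Slfn5, Slfn8 and Slfn9 of the Schlafen family, and Eif2ak2, which encodes the double-stranded RNA-activated kinase PKR. They were chosen by gene symbol from the 55536 genes of the RNA-seq tables, and all 9 were found. A filter on low counts, edgeR's default, left 18995 genes for testing, and 8 of the 9 restriction factors passed it. Ifitm1 did not pass and is described by its counts.

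The cells were primary mouse oligodendrocyte precursor cells (OPCs), the progenitors of myelinating oligodendrocytes, taken between postnatal days 4 and 6 from pup brain, with several brains pooled for each culture. The 12 libraries fall into 4 groups of 3 replicates from different litters. Ctr received neither agent, EZH2i received EPZ011989, a small molecule inhibitor of the histone methyltransferase EZH2, at 1.5 μM over 4 days, renewed each 48 h, the IFN-γ group received interferon gamma at 100 ng/ml for 6 h, and IFN-γ + EZH2i received the 4 days of inhibitor and IFN-γ for the last 6 h. EZH2 deposits H3K27me3, a repressive histone mark. The labels call the cells Sox10GFP+ OPCs. The GFP of these mice is switched on by a Cre driven from Sox10, so it marks the whole Sox10 lineage and not the OPC stage alone, and the study's methods allow sorting either for GFP or with CD140a beads without saying which was used for a library. The labels also give EAE, an autoimmune disease model, as the mouse model of all 12 libraries, while the methods describe its induction in adult mice, so that label was not used.

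Tetherin holds newly formed enveloped virions on the surface of the cell that made them. IFITM proteins sit in plasma and endosomal membranes and hinder the fusion of viral with cellular membranes. Schlafen proteins occur in short and long forms, of which Slfn2 is a short one and Slfn5, Slfn8 and Slfn9 are long ones. PKR binds double-stranded RNA and then phosphorylates the translation initiation factor eIF2α, which lowers protein synthesis. Genes of this kind are commonly induced by type I interferon through a promoter sequence called the interferon-stimulated response element (ISRE), and by IFN-γ through another, the gamma-activated site (GAS), and through the factor IRF1, which binds ISRE-like sequence.

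The genes lie in 4 places of the GRCm38 build. Ifitm2 (140954837 to 140955987), Ifitm1 (140967221 to 140969825) and Ifitm3 (141009586 to 141010770) are neighbours on chromosome 7. Slfn5 (82951349 to 82964840), Slfn9 (82978390 to 82991830), Slfn8 (83002158 to 83020810) and Slfn2 (83065112 to 83070678) form a cluster on chromosome 11. Bst2 is on chromosome 8 (71534255 to 71537456) and Eif2ak2 on chromosome 17 (78852564 to 78882573). RefSeq promoter windows of GRCm38.p6, from 250 bases before to 50 bases after the annotated start, were found for all 9 genes, with 2 windows for Slfn8, and were searched on both strands for the letters GAAANNGAAA, the ISRE core, and TTCNNNGAA, the GAS. The ISRE core was present in 3.44% of all 32851 windows, the core followed by C in 0.819% and the GAS in 8.30%. The core was in the windows of 7 of the 9 genes and, in these windows, not in those of Ifitm1 and Slfn2. The part of these letters in the responses below was not tested. The stretches around the core are written on the strand of the gene, 5′ to 3′, with the match in capitals.
Bst2 (chr8:71537583-71537612, minus strand): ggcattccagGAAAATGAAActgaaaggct
Ifitm2 (chr7:140955988-140956017, minus strand): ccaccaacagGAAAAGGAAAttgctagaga
Ifitm3, match nearer the start (chr7:141010723-141010752, minus strand): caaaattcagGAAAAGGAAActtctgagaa
Ifitm3, second match (chr7:141010706-141010735, minus strand): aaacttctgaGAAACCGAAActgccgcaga
Slfn5 (chr11:82951937-82951966, plus strand): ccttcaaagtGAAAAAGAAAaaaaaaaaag
Slfn9 (chr11:82991856-82991885, minus strand): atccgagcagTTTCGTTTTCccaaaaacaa
Slfn8 (chr11:83020839-83020868, minus strand): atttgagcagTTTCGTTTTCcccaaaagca
Eif2ak2 (chr17:78882535-78882564, minus strand): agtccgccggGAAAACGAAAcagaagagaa
Bst2 holds a second core match that overlaps the one shown. Ifitm2 and Ifitm3 hold the same 10 letters, but only in Ifitm3 are they followed by C, and Ifitm3 has a second match further on that is also followed by C. Slfn8 and Slfn9 share the same match on the opposite strand, and their windows were identical at 80.8% of 312 aligned columns. The GAS letters were found in the windows of Bst2, Ifitm3 and Eif2ak2, and in Bst2 and Ifitm3 they overlap an ISRE core. A match is a description of these letters and not a measured binding site.

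IFN-γ raised the transcripts of 7 of the 8 tested restriction factors, in cells without and with EZH2i, and Ifitm2 was the one for which no change was detected. Levels are given as TMM-normalized CPM, which are counts scaled to library size, and a gene was called when its adjusted p was under 0.05 (edgeR, quasi-likelihood, adjusted by Benjamini-Hochberg over the 18995 genes). Among all genes, 6.65% were called higher and 2.10% lower in IFN-γ versus Ctr, and 5.90% and 2.17% in IFN-γ + EZH2i versus EZH2i. The median log2 fold change of the 8 genes was 3.10 without and 3.89 with EZH2i, beside 0.00 over all genes in both. The 7 genes did not overlap between the groups in either comparison, and of all genes 13.5% and 11.8% were higher without overlap. The plot of CPM by library shows that the groups with IFN-γ separate for these genes and not for Ifitm2.

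**Figure D1:**
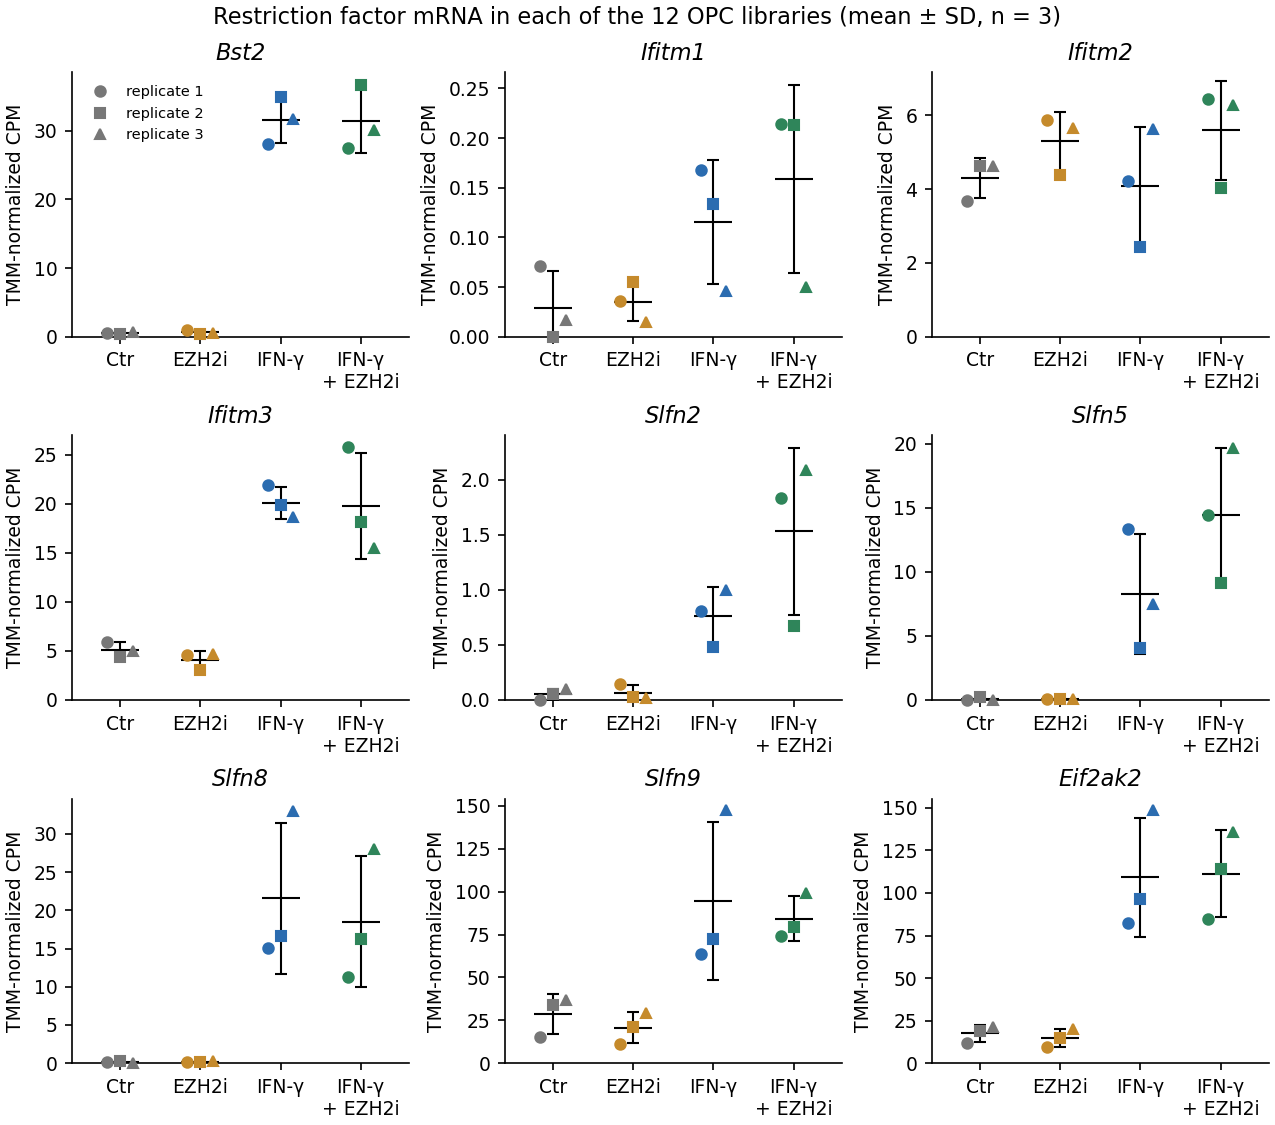
TMM-normalized CPM (vertical axis, linear, each panel on its own scale) of the 9 restriction factors in the 12 libraries, by group (horizontal axis); circles, squares and triangles are replicates 1, 2 and 3, and bars are the mean ± SD of n = 3. Bst2 stood at 0.384 to 1.04 CPM without IFN-γ and at 27.5 to 36.7 CPM with it, while Ifitm2 ranged from 2.42 to 6.45 CPM over all groups.

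Bst2 was barely detected without IFN-γ and was among the better expressed genes with it. It was at 0.532, 0.452 and 0.696 CPM in the 3 Ctr libraries and at 28.2, 34.9 and 31.8 CPM in the IFN-γ libraries. The lowest IFN-γ library thus lay far above the highest Ctr library. The log2 fold change was 5.75 ± 0.32 (SE), a 53.8-fold increase (adjusted p = 1.26e-07, edgeR). With EZH2i, Bst2 went from 1.04, 0.384 and 0.501 CPM to 27.5, 36.7 and 30.1 CPM, a log2 fold change of 5.67 ± 0.31 (adjusted p = 1.19e-07). Within the same replicate number the ratio was between 26.5 and 95.7. Per length, as the deposited TPM summed per gene, the mean in Ctr exceeded that of 29.4% of the tested genes and the mean in IFN-γ that of 89.9%. Bst2 was called in all 21 alternative fits of both comparisons.

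Of the 3 adjacent Ifitm genes, Ifitm3 was called in both IFN-γ comparisons, Ifitm2 in neither, and Ifitm1 was too low to test. Ifitm3, which acts on viruses that enter through endosomes, was at 5.96, 4.40 and 4.95 CPM in Ctr and 21.9, 19.9 and 18.6 CPM in IFN-γ, with no overlap. Its log2 fold change was 1.97 ± 0.23 (adjusted p = 0.000112). In EZH2i it was at 4.54, 3.07 and 4.66 CPM and with both agents at 25.8, 18.1 and 15.4 CPM, a log2 fold change of 2.27 ± 0.23 (adjusted p = 3.40e-05). The increase was 3.93-fold without EZH2i and 4.82-fold with it.

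Ifitm2, a close homologue of Ifitm3, started from a similar level per length, as given below, and stayed near it. It was at 3.69, 4.63 and 4.61 CPM in Ctr and 4.22, 2.42 and 5.62 CPM in IFN-γ. The IFN-γ libraries lay on both sides of the Ctr libraries, and the log2 fold change was -0.07 with a 95% interval from -0.72 to 0.58 (adjusted p = 0.945). In EZH2i, Ifitm2 was at 5.86, 4.38 and 5.65 CPM, and with both agents at 6.45, 4.04 and 6.29 CPM. The log2 fold change there was 0.08, with an interval from -0.56 to 0.72 (adjusted p = 0.960). A 2-fold rise, 1 on the log2 scale, lies outside both intervals. Of the 31-base stretches in Ifitm2 transcripts, 55.5% also occur in transcripts of other genes, Gm45717 and Gm8865 among them, against 20.5% for Ifitm3, and 6.02% of those of Ifitm3 occur in Ifitm2. Reads in such stretches are divided by Salmon, so the Ifitm2 level is less certain than that of Ifitm3. When Ifitm1, Ifitm2 and Ifitm3 were summed to 1 feature, the log2 fold change of the sum was 1.36 ± 0.18 without and 1.44 ± 0.18 with EZH2i (adjusted p = 0.000413 and 0.000263). The sum leaves out Gm45717 and Gm8865, so it does not settle the level of Ifitm2.

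Ifitm1, which restricts viruses mainly at the plasma membrane, was at the limit of detection. Its counts were 2, 0 and 1 in Ctr, 1, 2 and 1 in EZH2i, 5, 5 and 3 in IFN-γ, and 5, 7 and 2 with both agents. The libraries of the groups overlapped in both comparisons. The pooled ratio of IFN-γ to Ctr was 3.44 with a 95% interval from 0.945 to 18.8, and that of both agents to EZH2i was 4.73, from 1.48 to 19.7. These exact intervals cover counting error only.

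The 4 Schlafen genes separated into 3 that were nearly silent in Ctr and 1, Slfn9, that was expressed there. Slfn5 had counts of 0, 4 and 1 in Ctr and 398, 152 and 484 in IFN-γ, which is 0, 0.226 and 0.0170 CPM against 13.3, 4.05 and 7.47 CPM. The log2 fold change was 7.25 ± 0.79 (adjusted p = 6.49e-05), and the pooled ratio of 164 had a counting interval from 70.1 to 506. Leaving out Ctr replicate 2, which held 4 of the 5 Ctr counts, moved the log2 fold change to 9.16, and leaving out Ctr replicate 3 moved it to 6.46. With EZH2i, Slfn5 went from counts of 3, 2 and 5 to 337, 301 and 791, a log2 fold change of 7.49 ± 0.73 (adjusted p = 2.29e-05). The size of the rise is therefore loosely bounded, while its call held in every one of the 21 alternative fits of each comparison. Slfn5os, an antisense gene that overlaps Slfn5, shares 7.99% of the 31-base stretches of Slfn5. The strand setting of the quantification is not given in the sources used here.

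Slfn8 rose from counts of 5, 4 and 3 in Ctr to 451, 627 and 2137 in IFN-γ, or from at most 0.226 CPM to 15.1, 16.7 and 33.0 CPM. Its log2 fold change of 7.43 ± 0.60 was the largest of the 8 genes in that comparison (adjusted p = 4.11e-06), and without Ctr replicate 3 it was 6.76. With EZH2i it rose from 4, 4 and 16 counts to 265, 534 and 1128, a log2 fold change of 6.69 ± 0.55 (adjusted p = 5.10e-06).

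Slfn2, in which an inactivating mutation of the mouse causes loss of T cell quiescence, had the lowest level per length among the called genes in both groups with IFN-γ. In Ctr it had 0, 1 and 6 counts and in IFN-γ 24, 18 and 65, or 0.804, 0.479 and 1.00 CPM. The groups did not overlap, and the log2 fold change was 3.56 ± 0.80 (adjusted p = 0.0146). This call was lost without Ctr replicate 2 (adjusted p = 0.0574), and without Ctr replicate 3, which held 6 of the 7 Ctr counts, the value was 4.91. With EZH2i, Slfn2 went from 4, 1 and 1 counts to 43, 22 and 84, or to 1.84, 0.669 and 2.09 CPM. The log2 fold change was 4.84 ± 0.80 (adjusted p = 0.00196), with values of 6.06 without EZH2i replicate 1 and 4.20 without EZH2i replicate 3.

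Slfn9 was the Schlafen gene with a level in untreated cells. It was at 15.4, 34.1 and 36.7 CPM in Ctr and at 63.6, 72.6 and 147.5 CPM in IFN-γ. Every IFN-γ library was above every Ctr library, but the spread was wide, and the log2 fold change of 1.72 ± 0.41 passed narrowly (adjusted p = 0.0210). The adjusted p was 0.0763 without Ctr replicate 1, 0.0597 without Ctr replicate 2 and 0.0814 without IFN-γ replicate 3. With EZH2i it went from 11.4, 21.3 and 29.2 CPM to 74.2, 79.4 and 99.3 CPM, a log2 fold change of 2.02 ± 0.42 (adjusted p = 0.00865). That call held without each of the 12 libraries in turn. In the fit that blocks on replicate number, IFN-γ versus Ctr gave an adjusted p of 5.61e-05 at a log2 fold change of 1.72.

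Slfn8 and Slfn9 lie next to each other on the minus strand, and 19.1% of the 31-base stretches of Slfn8 occur in Slfn9. Slfn10-ps, a neighbouring pseudogene, shares 18.7% of those of Slfn8 and 14.3% of those of Slfn9. The split of reads between the 3 is thus an estimate. Summed to 1 feature they rose by 2.06 ± 0.41 on the log2 scale without EZH2i and by 2.34 ± 0.42 with it (adjusted p = 0.00742 and 0.00340), and Slfn9 held most of the summed reads. In IFN-γ libraries, the leading transcript of Slfn9 took a median of 88.5% of the gene's reads, while those of Slfn8 were divided over 4 transcripts at medians of 53.3%, 19.5%, 16.3% and 10.9%.

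Eif2ak2, the gene of PKR, was already expressed in untreated cells and rose in both IFN-γ comparisons. It was at 11.9, 19.0 and 21.5 CPM in Ctr and at 82.4, 96.4 and 148.5 CPM in IFN-γ. The groups were far apart, with a log2 fold change of 2.64 ± 0.33 (6.24-fold, adjusted p = 2e-04). In EZH2i it was at 9.37, 14.6 and 19.9 CPM and with both agents at 84.8, 113.9 and 135.6 CPM. That was a log2 fold change of 2.93 ± 0.33 (7.60-fold, adjusted p = 9.18e-05). Within a replicate number the ratio of IFN-γ to Ctr was 6.90, 5.08 and 6.91, which is a narrower range than that of the levels. Eif2ak2 was called in all 22 alternative fits of both comparisons, and 1 transcript held a median of 97.1% of its reads in IFN-γ.

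**Figure D2:**
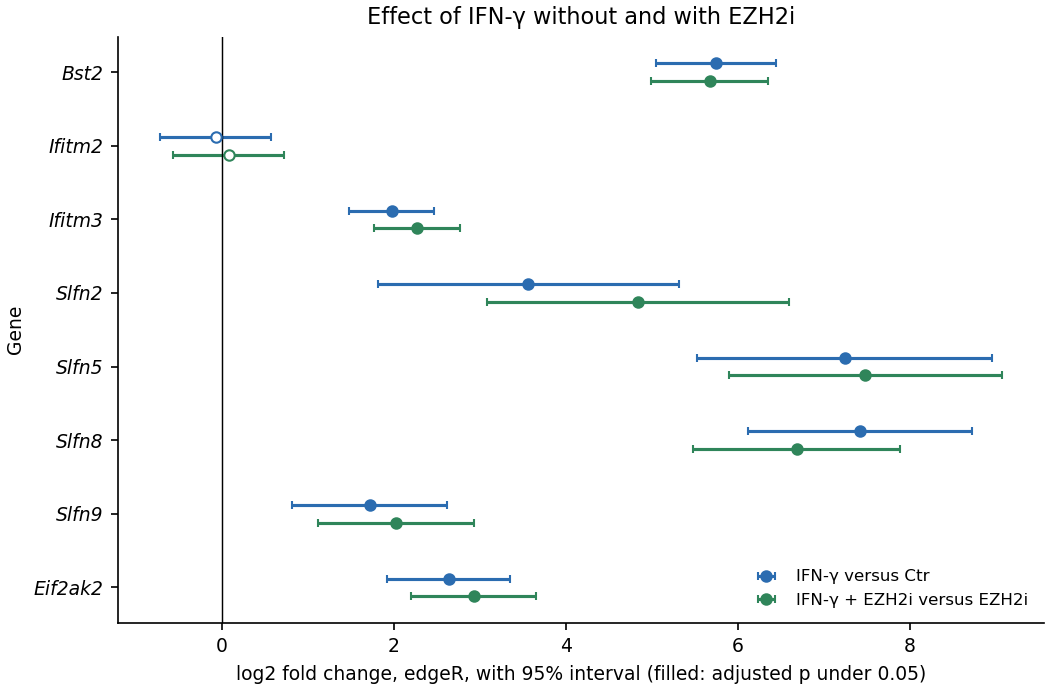
Log2 fold change (horizontal axis) of the 8 tested restriction factors (vertical axis) in IFN-γ versus Ctr and in IFN-γ + EZH2i versus EZH2i, with 95% intervals from edgeR (n = 3 per group); filled points have an adjusted p under 0.05. Ifitm2 sits at -0.07 and 0.08, and the other 7 genes lie between 1.72 and 7.49.

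Slfn9 and Eif2ak2 varied together between cultures. In each of the 4 groups, both were lowest in the library of replicate 1 and highest in that of replicate 3, and Slfn8 was also highest in replicate 3 in the EZH2i group and both IFN-γ groups. The 4 libraries of replicate 3 were the deepest of their groups and had the highest summed level of 6 astrocyte markers, at 960.2, 1440, 1123 and 1478 CPM in Ctr, EZH2i, IFN-γ and both, against 428.1 to 876.2 CPM in the other 8. The part of these in the levels was not tested. When these 4 libraries were left out, an alternative chosen after seeing the data, Slfn9 (log2 fold change 1.47, adjusted p = 0.0890) and Slfn2 (4.59, adjusted p = 0.0906) were no longer called in IFN-γ versus Ctr, nor Slfn2 with EZH2i (3.88, adjusted p = 0.0641). That fit has fewer libraries in each group, so it cannot separate a part of replicate 3 from the loss of replicates.

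Compared per length, the order of the genes changed with IFN-γ. In Ctr, the TPM was highest for Ifitm3 (7.07 ± 1.19, SD) and Ifitm2 (6.48 ± 2.07), followed by Slfn9 (4.32 ± 2.49) and Eif2ak2 (3.32 ± 1.54), and each of these overlapped its neighbour in this order. Bst2, at 0.713 ± 0.244 TPM, lay below all Eif2ak2 libraries, and Ifitm1, Slfn8, Slfn2 and Slfn5 followed at means of 0.0474 TPM or less. With IFN-γ, Bst2 was first at 41.7 ± 7.76 TPM, followed by Ifitm3 (32.9 ± 3.49), Eif2ak2 (24.7 ± 6.06) and Slfn9 (15.2 ± 6.21), again with overlap between neighbours. Ifitm2 (6.90 ± 2.32) lay below all Slfn9 libraries and overlapped Slfn8 (5.09 ± 2.03). Slfn5 (1.63 ± 1.09) was below Slfn8, and Slfn2 (0.390 ± 0.108) was below Slfn5 without overlap, while Ifitm1 (0.232 ± 0.119) overlapped Slfn2. In IFN-γ + EZH2i the means came in the same order, from Bst2 at 37.6 ± 7.66 TPM to Ifitm1 at 0.321 ± 0.200 TPM.

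No restriction factor passed the test for an effect of EZH2i. In EZH2i versus Ctr, 0 of the 8 were called by edgeR, 0 had an unadjusted p under 0.05, as did 1338 of all 18995 genes, and DESeq2 called 0. Of all genes, 0.405% were called higher and 0% lower. With IFN-γ present, 0 of the 8 were called in IFN-γ + EZH2i versus IFN-γ by edgeR or DESeq2. There, 0 of the 8 and 1220 of all genes had an unadjusted p under 0.05 in edgeR, and of all genes 0.347% were called higher and 0.00526% lower. With the replicate block, 0 of the 8 were called in either comparison, and 2 had an unadjusted p under 0.05 in each, Slfn9 and Eif2ak2 without and Slfn5 and Ifitm2 with IFN-γ. At that level the block fit held 3505 genes without and 3284 with IFN-γ. The intervals were narrow for some genes and wide for others. For Bst2 the log2 fold change was 0.07 (95% interval from -0.66 to 0.80) without IFN-γ and -0.01 (from -0.54 to 0.52) with it. For Ifitm3 these were -0.32 (from -0.81 to 0.17) and -0.02 (from -0.50 to 0.45). Slfn5, with 5 and 10 counts in Ctr and EZH2i, had an interval from -1.88 to 3.0 without IFN-γ, so a change of several-fold in either direction was not detectable at this depth.

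Slfn9 and Eif2ak2 had means of 20.7 and 14.6 CPM in EZH2i, against 28.7 and 17.5 CPM in Ctr, with overlap between the groups. Their log2 fold changes were -0.47 (from -1.35 to 0.41) and -0.26 (from -0.94 to 0.43), with adjusted p = 0.960 and 0.974. The fit with the replicate number as a block gave -0.48 and -0.27, with adjusted p = 0.229 and 0.206, so neither was called there. Within a replicate number, Slfn9 (0.741, 0.626 and 0.797) and Eif2ak2 (0.784, 0.767 and 0.924) were higher with EZH2i in 0 of 3 pairs. Ifitm3 was also higher in 0 of 3, while Bst2 was higher in 1 and Ifitm2 in 2. The share of all genes with such agreement was not counted, and the libraries of number 2 were weakly paired here (r = 0.0929). Slfn9 and Eif2ak2 varied together between cultures, so their pairs are not independent.

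In the presence of IFN-γ, Slfn2 and Slfn5 were the 2 genes with the largest difference between cells with and without EZH2i. Slfn5 was at 8.28 ± 4.70 CPM in IFN-γ and 14.4 ± 5.25 CPM with both agents, and Slfn2 at 0.762 ± 0.264 and 1.53 ± 0.757 CPM. The libraries of the groups overlapped for both genes. Within a replicate number both were higher with EZH2i in 3 of 3 pairs, with ratios of 1.08, 2.26 and 2.63 for Slfn5 and 2.29, 1.39 and 2.08 for Slfn2. Ifitm2 was also higher in 3 of 3 pairs, at 1.53, 1.67 and 1.12, and Slfn8 in 0 of 3. Bst2 and Ifitm3 were higher in 1 of 3, and Slfn9 and Eif2ak2 in 2 of 3. How common such agreement is among all genes was not counted. For Slfn5 and Slfn2 the log2 fold changes were 0.80 (from -0.26 to 1.87) and 0.99 (from -0.32 to 2.30), with adjusted p = 0.941 for each (edgeR). Under the replicate block they were 0.89 and 0.94, with adjusted p = 0.146 and 0.304.

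Whether EZH2i changed the response to IFN-γ was tested as the interaction, the difference between the log2 fold changes of IFN-γ with and without the inhibitor. It was called for 0 of the 8 restriction factors and for 0% of all genes in either direction by edgeR. At an unadjusted p under 0.05 there were 0 restriction factors and 127 of 18995 genes, fewer than this threshold passes on average without any effect. DESeq2 called 0. With the replicate block, 0 restriction factors and 545 genes had an unadjusted p under 0.05. Since no gene was called at all, the 0 among restriction factors does not show that the responses were equal. In the main fit the differences ranged from -0.74 (Slfn8, interval from -2.58 to 1.10) to 1.28 (Slfn2, from -1.39 to 3.95). The narrowest interval of this fit was that of Ifitm3, at 0.30 (from -0.39 to 0.98), so a doubling of its response to IFN-γ lay just outside it. For Bst2 the difference was -0.08 (from -0.97 to 0.82), and for Eif2ak2 0.29 (from -0.67 to 1.24). With the replicate block, Eif2ak2 was at 0.32 ± 0.15 (SE, unadjusted p = 0.0526, edgeR) and Ifitm3 at 0.26 ± 0.22. These standard errors are smaller than those of the main fit, 0.44 and 0.31, and no restriction factor was called.

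**Figure D3:**
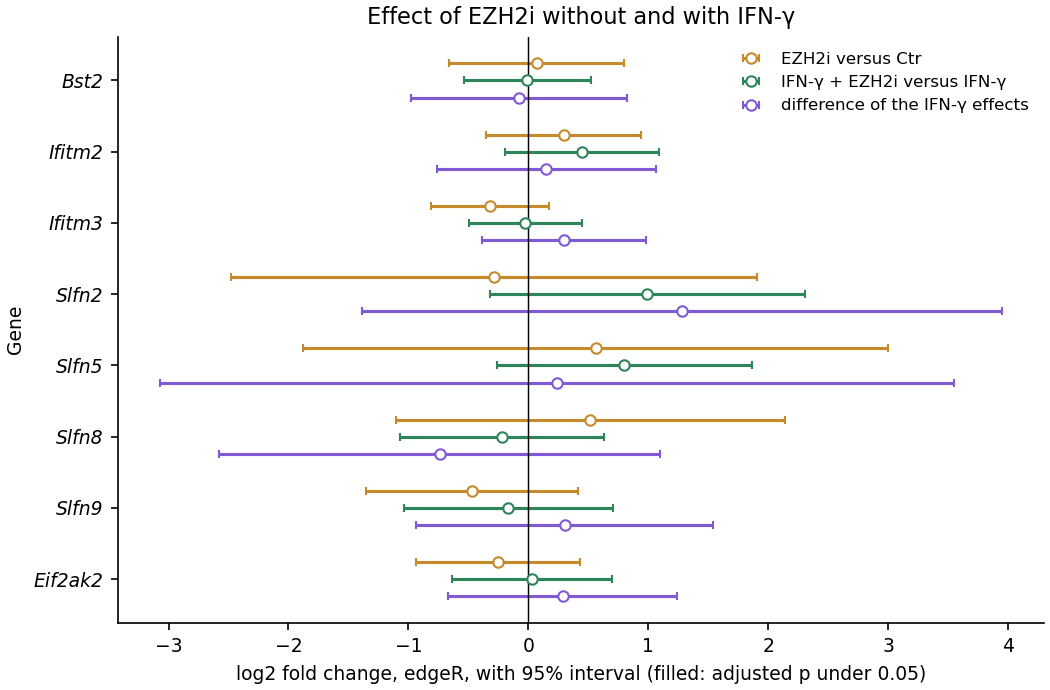
Log2 fold change (horizontal axis) of the 8 tested restriction factors (vertical axis) in EZH2i versus Ctr, in IFN-γ + EZH2i versus IFN-γ, and as the difference of the 2 IFN-γ effects, with 95% intervals from edgeR (n = 3 per group). All points are open, since none had an adjusted p under 0.05, and the intervals without IFN-γ and of the difference are widest for Slfn2, Slfn5 and Slfn8, which had few counts without IFN-γ.

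Among the other genes of the IFITM and Schlafen families, 1 of the 4 that were tested was called in the IFN-γ comparisons. Of the 4 other IFITM genes, Ifitm7 and Ifitm10 passed the filter and neither was called, with log2 fold changes of -0.06 and 0.72 in IFN-γ versus Ctr and -0.25 and 1.09 with EZH2i. Ifitm5 and Ifitm6 were at means of 0.106 CPM or less in every group. Of the 6 other Schlafen genes, Slfn10-ps and Slfn14 were tested. Slfn10-ps went from a mean of 0.126 CPM to 4.34 CPM with IFN-γ (log2 fold change 5.24 ± 0.38, adjusted p = 1.66e-06) and also rose with EZH2i (3.85 ± 0.33, adjusted p = 7.54e-06), and it shares sequence with Slfn8 and Slfn9 as given above. Slfn14 was not called, at 1.19 CPM in Ctr and 1.73 CPM in IFN-γ. Slfn3, at means of 0.0995 CPM without and 0.261 CPM with IFN-γ, was not tested, like Slfnl1, and Slfn1 and Slfn4 were at 0 in Ctr.

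PKR is 1 of 4 kinases that phosphorylate eIF2α, and the other 3 did not rise. These are Eif2ak1, the heme-regulated kinase, Eif2ak3, the endoplasmic reticulum stress kinase PERK, and Eif2ak4, the amino acid sensor GCN2. Their log2 fold changes in IFN-γ versus Ctr were -0.05, -0.28 and 0.11, none of them called. With EZH2i, Eif2ak3 fell by 0.46 on the log2 scale, from 83.5 to 60.5 CPM (adjusted p = 0.0278), and the other 2 were not called. Of 11 genes that regulate PKR or act after eIF2α, 1 rose in each comparison and none fell. It was Adar, which edits double-stranded RNA and thereby limits activation of PKR, at 64.9 CPM in Ctr and 149 CPM in IFN-γ, a log2 fold change of 1.20 ± 0.11 (adjusted p = 1.56e-05), and 1.08 ± 0.11 with EZH2i (adjusted p = 3.92e-05). Atf4 and Ddit3, which act after eIF2α, are in the list. Their log2 fold changes were 0.15 and 0.27 in IFN-γ versus Ctr (adjusted p = 0.562 and 0.540, edgeR). Phosphorylation of eIF2α was not measured, and these transcript levels do not stand for it. The median over the list was 0.15 without and 0.10 with EZH2i.

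Of 13 other antiviral restriction genes, 11 rose in each IFN-γ comparison and none fell, with medians of 2.51 without and 2.46 with EZH2i on the log2 scale. The 4 with the largest changes in both were Zbp1, a sensor of Z-form nucleic acid, at a log2 fold change of 7.87 in IFN-γ versus Ctr, Trim30a at 4.57, Trim21, a cytosolic antibody receptor, at 4.54, and Rsad2, which encodes viperin, at 4.32. With EZH2i these were 6.76, 5.19, 4.78 and 4.46. The 2 genes not called in either comparison were Isg20 and Serinc5. The rises of Slfn5 and Slfn8 lie near that of Zbp1, and those of Ifitm3 and Slfn9 lie below the median of this list.

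Of 11 genes of the interferon signalling pathway, 8 rose in each comparison. Socs1, a feedback inhibitor, rose by 6.77 on the log2 scale, Irf1 by 6.31 and Stat2 by 3.90 in IFN-γ versus Ctr, and by 6.61, 6.60 and 3.94 with EZH2i. Of the 4 receptor genes, Ifnar2 rose by 1.08 without and 1.09 with EZH2i on the log2 scale. Ifnar1, Ifngr1 and Ifngr2 were not called, and the last 2 stood at 23.8 and 26.7 CPM in Ctr. In EZH2i versus Ctr and in IFN-γ + EZH2i versus IFN-γ, 0 genes of any of these lists were called. Of all genes, 0.405% were called higher and 0% lower in the first, and 0.347% and 0.00526% in the second. At these shares, 0 calls in lists of this size does not show that EZH2i left them unchanged. Unadjusted p was under 0.05 (edgeR) for Slfn10-ps and Zc3hav1, higher, and Stat2, lower, in the first, and for Trim25 and Serinc5, lower, in the second.

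**Figure D4:**
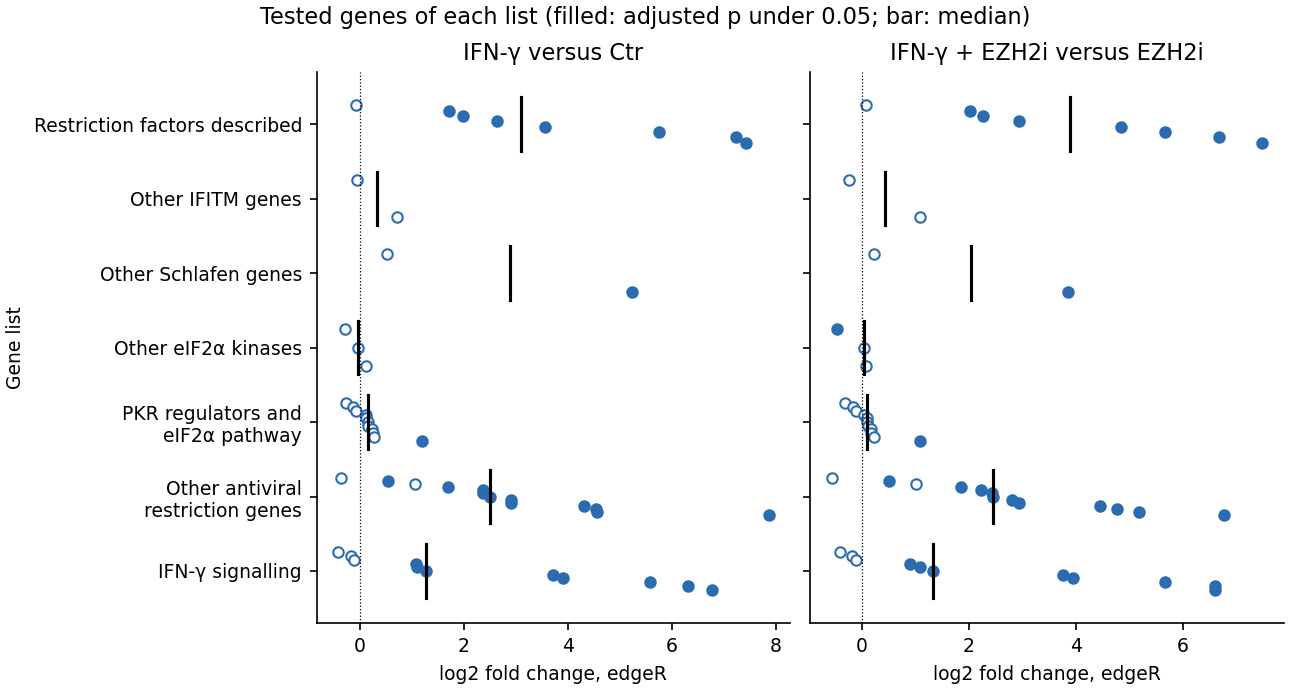
Log2 fold change (horizontal axes) of each tested gene in 7 lists (vertical axis) in IFN-γ versus Ctr (left) and IFN-γ + EZH2i versus EZH2i (right); filled points have an adjusted p under 0.05 from edgeR and black bars are list medians. The other eIF2α kinases and the PKR regulators lie between -0.46 and 0.27 except Adar, while the restriction factors described reach 7.43 and 7.49.

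Over the 12 libraries, the genes with the most similar pattern were named by Pearson's r of log2(CPM + 0.5), among 14680 genes with a mean of at least 1 CPM. Each r covers all 12 libraries, so for the genes that rose with IFN-γ it includes the split by IFN-γ. The part of that split in the values was not tested. For Bst2 they were Gbp11, Gbp4 and Tgtp2 (r = 0.998 each), for Slfn8 Casp4 and BC023105 (0.997) and Gm5431 (0.996), and for Slfn5 Ifi203 and Ifi204 (0.989) and Sorbs2 (0.987). For Ifitm3 they were Ccn4 (0.987), Ttc39b and Il18bp (0.986), and for Slfn2 Ccl7 (0.969), AC160336.1 (0.966) and Maf (0.961). Il6st was the first for both Eif2ak2 (0.990) and Slfn9 (0.983). Eif2ak2 was also close to Gm6548 (0.990) and Ifit2 (0.989), and Slfn9 to Gclm (0.981) and Plxnc1 (0.975). Ifitm2 had the least similar neighbours, which were Ephx1 (0.950), Shisa3 (0.935) and Aldoc (0.904).

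The libraries held between 17403896 and 66546017 counts, with the least in Ctr replicate 2 and the most in IFN-γ replicate 3. The OPC label was checked against 6 OPC markers, whose summed level was 3837 to 6952 CPM. Of these markers, Pdgfra (from 1505 to 715.5 CPM in IFN-γ versus Ctr) and Cspg4 (from 791.9 to 355.5 CPM) fell in both IFN-γ comparisons, and the other 4 were not called, with Sox10 at 0.08 and Ptprz1 at -0.03 on the log2 scale in IFN-γ versus Ctr. The 6 mature oligodendrocyte markers summed to 1892 to 2325 CPM in Ctr and 1765 to 2097 CPM in IFN-γ, against 1112 to 1641 CPM in EZH2i and 1074 to 1615 CPM with both agents, and 0 of the 6 were called in any comparison. Since the samples are bulk, fewer cells of a type and less RNA per cell cannot be told apart. Astrocyte markers summed to 428.1 to 1478 CPM, and none of the 6 was called with IFN-γ. The 10 microglia and macrophage markers summed to 2.19 to 3.07 CPM without IFN-γ and 2.49 to 4.52 CPM with it, with C1qa at 0 in all 12 libraries, and none of the 3 that were tested was called. Of 4 T and B cell markers, Cd3g was at 0 in all libraries. The 5 neuron markers summed to 34.8 to 85.8 CPM without and 685.8 to 1650 CPM with IFN-γ, mostly through Tubb3, with 3 of 5 higher and Rbfox3 and Snap25 not called. Stmn2, another of the 5, was also higher in IFN-γ + EZH2i than in IFN-γ (log2 fold change 2.54, adjusted p = 0.0321, edgeR). It was the only neuron marker called in a comparison with EZH2i. At an unadjusted p under 0.05, 4 of the 5, all but Tubb3, were higher with EZH2i, both without and with IFN-γ. Snap25 went from 11.1 CPM in Ctr to 26.2 CPM in EZH2i, and from 10.4 CPM in IFN-γ to 21.3 CPM with both agents. Of 5 pericyte and fibroblast markers, 3 were tested and only Lum was called, from 0.0826 to 1.35 CPM in IFN-γ versus Ctr. Col1a1 and Col1a2 were at 0.09 and 0.75 on the log2 scale there. With EZH2i, Lum rose by 4.55, while Col1a1 and Col1a2 were at -0.56 and -0.57 and not called. None of the 3 tested endothelial markers was called. The part of the neuron, fibroblast and oligodendrocyte markers in the results above was not tested.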

How the data were processed

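Libraries were made with a stranded total RNA kit. Salmon 0.8.2 was run by the authors on trimmed reads, and its estimated counts per transcript were deposited unscaled, beside TPM values that the authors' Salmon run gives per effective transcript length. The submitters' processing notes also name STAR, DESeq2, mm10 and GRCm38. Tables of the authors' own DESeq2 comparisons (fold changes and p-values) were not used. Estimated counts were summed per gene with GENCODE vM21, which matched all 141862 transcripts, and rounded.

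Counts were fitted in R 4.3.3 with edgeR 4.0.16 (TMM, quasi-likelihood), group being the sole term for all 12 libraries, and adjusted by Benjamini-Hochberg over the tested genes. The detection floor was set at 3 counts per library. Counting intervals are 95% exact conditional binomial intervals. Library totals spanned 3.82-fold (median 33625880), so genes under 1 CPM are the least precise. Chi-square values between replicates were 31.3 to 180.6 per gene, far above sampling noise.

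The restriction factors and gene lists were chosen with earlier results of these data known. Named are the 9 restriction factors, their family members, up to 4 called genes of each other list by absolute log2 fold change, and the 3 genes most similar to each tested restriction factor. One gene that this rule picks is not reported here. Atf4, Ddit3, Isg20, Serinc5, Zc3hav1, Trim25, Ifnar2, the other receptors and marker genes were named after their values were seen. Same-numbered libraries deviated together from their groups to unequal degrees. The r was 0.627, 0.105 and 0.652 (Ctr and IFN-γ) and 0.583, 0.0929 and 0.608 (Ctr and EZH2i). It was 0.605, 0.633 and 0.686 (EZH2i and both agents) and 0.741, 0.638 and 0.748 (IFN-γ and both agents). Ratios within a number, which the labels give, and the replicate block treat these libraries as pairs, and the main fit does not. In the comparisons with Ctr the pairing was weak for number 2.

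The settings varied were the tool (DESeq2 1.42.0), RLE factors, the filter (none, or at least 10 counts throughout), a replicate block and length-scaled TPM. Others were removal of mitochondrial and rRNA genes, a fit of the compared samples only and an absolute log2 fold change above 1. Related genes were summed (Ifitm1, Ifitm2 and Ifitm3, and Slfn8, Slfn9 and Slfn10-ps), each library was left out, and TPM was used for levels. Leaving out the 4 libraries of replicate 3 was added after seeing the data. Promoter windows are from RefSeq.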

Additional observations from a re-analysis of the deposited data

How the results depend on the processing

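The calls of Bst2, Ifitm3, Slfn5, Slfn8 and Eif2ak2 held, where tested, under every alternative in both IFN-γ comparisons, and in the comparisons with EZH2i and the interaction no alternative called a restriction factor. For Ifitm3 and Slfn8 the summed setting tests the sum and not the gene alone. The filter of at least 10 counts in every sample dropped Bst2, Slfn5 and Slfn8, so they were not tested there. Counts of called restriction factors were 7 of 8 in both IFN-γ comparisons also with the replicate block, which changed no call among them but moved the genes called overall from 1663 to 4032 without and from 1533 to 3661 with EZH2i. Without each library in turn the count was 5 to 7 without and 7 with EZH2i. Requiring at least 10 counts in every sample left 3 called in each, since fewer genes were then tested. For the summed genes no count was made. Depth limits Ifitm1, Slfn2, Slfn5 and Slfn8, which had few counts without IFN-γ. Most log2 fold changes below are near 0, and their signs are not resolved; the cause was not tested.

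Ifitm2 in IFN-γ versus Ctr turned from -0.07 to 1.36 when summed with Ifitm1 and Ifitm3, since the sum includes Ifitm3, and that sum gave -0.0042 in EZH2i versus Ctr and 0.070 in IFN-γ + EZH2i versus IFN-γ, where Ifitm3 alone was negative. Slfn8 summed with Slfn9 and Slfn10-ps gave -0.46 in EZH2i versus Ctr and 0.28 for the interaction. The replicate block turned Bst2 to -0.011 in EZH2i versus Ctr and 0.0020 for the interaction. Length-scaled TPM turned Bst2 to -0.015 in EZH2i versus Ctr, Eif2ak2 to -0.025 in IFN-γ + EZH2i versus IFN-γ and Slfn5 to -0.63 for the interaction. In IFN-γ + EZH2i versus IFN-γ, Bst2 was at 0.00015 with RLE factors and 0.00010 with DESeq2. Without the 4 libraries of replicate 3, EZH2i versus Ctr gave 1.65 for Slfn2, -0.22 for Slfn5 and -0.66 for Slfn8. In the same setting, IFN-γ + EZH2i versus IFN-γ gave 0.020 for Bst2, 0.065 for Ifitm3 and 0.17 for Slfn9, and the interaction gave -0.71 for Slfn2 and 0.44 for Slfn8.

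Leaving out 1 library at a time changed the sign in some fits, with these ranges. In IFN-γ versus Ctr, Ifitm2 ranged from -0.38 to 0.20, and with EZH2i from -0.052 to 0.27. In EZH2i versus Ctr, Bst2 ranged from -0.38 to 0.31, Slfn2 from -1.51 to 1.06, Slfn5 from -0.23 to 2.48 and Slfn8 from -0.15 to 0.86. In IFN-γ + EZH2i versus IFN-γ, Bst2 ranged from -0.14 to 0.076, Ifitm3 from -0.27 to 0.13, Slfn8 from -0.65 to 0.22, Slfn9 from -0.39 to 0.31 and Eif2ak2 from -0.14 to 0.32. For the interaction, Bst2 ranged from -0.32 to 0.37, Ifitm2 from -0.12 to 0.46, Slfn2 from -0.068 to 2.50 and Slfn5 from -1.68 to 1.03.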
